A study of Mus musculus with 4 samples.

Results

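The genes described are Btg1, Btg2, Tnfrsf14, Sgk1, Socs1, Stat6 and Ebf1, which are mutated or deleted in human germinal center (GC) lymphomas or act in the cytokine signal that runs through STAT6. They were taken as a list by name, 7 of the 31053 genes in the deposited matrices, and all 7 were found. The study profiled mouse spleen cells sorted as B220+IgD- by droplet-based 3' single-cell RNA sequencing, 10 days after immunization with sheep red blood cells. All mice were females on the C57BL/6J background, 8 weeks of age per the study, and carried a Cγ1-Cre allele, which acts in B cells that are activated with T cell help. The group labelled WT carried no floxed gene, C (C_het_KO) carried 1 floxed Crebbp allele, K (K_het_KO) 1 floxed Kmt2d allele, and CK (CK_het_DKO) 1 of each. Each genotype was 1 mouse and 1 library, so differences between genotypes have no replicate check and were not tested. All ratios over WT share the 1 WT library, so a direction common to the mutant libraries is not a set of separate observations. The intervals given are at 95% and cover only the error of counting. Non-GC B cells and T cells carry the floxed alleles too, but lie outside the main action of this Cre.

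A GC is the structure in which B cells mutate their antibody genes and are selected. Centroblasts (CB) divide in its dark zone, centrocytes (CC) are tested in its light zone for antigen binding and T cell help, and selected cells return to the dark zone or leave as memory or plasma cells. BTG1 and BTG2 are antiproliferative proteins that bind the CCR4-NOT deadenylase, which shortens the poly(A) tails of messenger RNAs. Tnfrsf14 encodes HVEM, a surface receptor that engages the inhibitory receptor BTLA. SGK1 is a kinase downstream of PI3K and mTORC2 that acts on FOXO transcription factors. Interleukin 4 from T cells activates JAK kinases and then STAT6, while SOCS1, itself induced by STAT proteins, inhibits JAKs. EBF1 is a transcription factor that sets up and maintains B cell identity together with PAX5.

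In the GENCODE vM21 annotation of GRCm38, all members are protein-coding genes. On the plus strand lie Btg1 (ENSMUSG00000036478, chromosome 10, 96617006 to 96622809), Sgk1 (ENSMUSG00000019970, chromosome 10, 21882184 to 21999903), Stat6 (ENSMUSG00000002147, chromosome 10, 127642986 to 127660957) and Ebf1 (ENSMUSG00000057098, chromosome 11, 44617317 to 45008091). On the minus strand lie Btg2 (ENSMUSG00000020423, chromosome 1, 134075170 to 134079120), Tnfrsf14 (ENSMUSG00000042333, chromosome 4, 154921933 to 154928563) and Socs1 (ENSMUSG00000038037, chromosome 16, 10782240 to 10785536). Counts from 3' ends do not tell the starts of a gene apart.

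RefSeq lists 13 starts for these genes in GRCm38.p6, 6 of them for Sgk1 and 2 for Ebf1. The 250 bases before each start were searched on both strands for the STAT motif TTCNNNGAA, the form of it preferred by STAT6, with 4 bases in place of 3 between its arms, and the EBF motif CCCNNGGG. The CRE motif TGACGTCA, which is bound by CREB factors that recruit CREBBP, and its core TGACG were added after the sequences had been seen. The promoters of the BTG pair are shown because Btg2 was below WT in CB of every mutant library and both hold the CRE core. They are chr1:134079156-134079405 on the minus strand for Btg2 and chr10:96616751-96617000 on the plus strand for Btg1. Capitals mark the CRE motif in Btg2 and the core, read on the other strand, in Btg1.
Btg2: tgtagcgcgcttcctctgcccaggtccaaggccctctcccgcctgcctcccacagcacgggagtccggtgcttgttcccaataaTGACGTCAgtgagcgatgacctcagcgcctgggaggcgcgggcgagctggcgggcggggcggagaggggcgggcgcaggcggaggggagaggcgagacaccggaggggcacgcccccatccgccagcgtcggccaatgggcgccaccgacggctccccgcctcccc
Btg1: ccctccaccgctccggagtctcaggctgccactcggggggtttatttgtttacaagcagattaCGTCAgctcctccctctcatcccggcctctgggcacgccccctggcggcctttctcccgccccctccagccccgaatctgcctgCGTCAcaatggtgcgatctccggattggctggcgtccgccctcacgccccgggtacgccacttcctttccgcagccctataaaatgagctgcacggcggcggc
The CRE motif stood 166 bases before the Btg2 start, and 1.55% of the 32851 promoters of this length held it. The core stood 187 and 103 bases before the Btg1 start, was part of the whole motif in Btg2, and was present in 17.8% of promoters. It was also found in Stat6, 33 bases before the start, and before the second Sgk1 start. Since the CRE motif was added after the sequences had been seen, its share of promoters is no test. Binding of a factor was not measured.

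Socs1 is shown as the feedback gene of the STAT pathway, and the first Sgk1 start as the only one of the 13 with a STAT motif. They are chr16:10785537-10785786 on the minus strand and chr10:21881934-21882183 on the plus strand. Capitals in Sgk1 mark the STAT motif, 223 bases before the start, and the EBF motif, 210 bases before it.
Socs1: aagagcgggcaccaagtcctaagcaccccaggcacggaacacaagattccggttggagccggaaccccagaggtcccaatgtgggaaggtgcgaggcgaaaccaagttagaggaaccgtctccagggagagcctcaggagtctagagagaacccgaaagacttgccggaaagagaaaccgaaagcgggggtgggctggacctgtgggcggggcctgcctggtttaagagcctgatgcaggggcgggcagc
Sgk1: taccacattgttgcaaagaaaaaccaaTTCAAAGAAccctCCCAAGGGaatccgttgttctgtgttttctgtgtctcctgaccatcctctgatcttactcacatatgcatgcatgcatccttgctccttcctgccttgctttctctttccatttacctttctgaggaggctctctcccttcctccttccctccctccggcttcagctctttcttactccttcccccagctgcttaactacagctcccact
The STAT motif was present in 7.02% of promoters, the STAT6 form in 5.85% and the EBF motif in 11.8%. Tnfrsf14 held 1 EBF motif, 8 bases before its start. None of the 5 sets of letters was found in the window of Socs1 or in those of Ebf1.

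The libraries held 8071 to 12852 barcodes and 33270825 to 39803865 UMIs (unique molecular identifiers, which mark single captured transcripts). The deposited cell table names 9804 of the cells as GC B cells of 6 subtypes, with 1227 (WT), 2041 (C), 2583 (K) and 3953 (CK) cells. Barcodes were also clustered here without the members, which gave 7042 unannotated non-GC B-like and 7852 T-like cells. Levels are given as UMIs of a gene per 1000000 UMIs of the population (CPM). S1pr2, which encodes a receptor that holds B cells in the GC, was at 139 to 148 CPM in annotated and 2.83 to 11.3 CPM in non-GC B-like cells. Ighd was at 317 to 472 CPM in non-GC B-like cells, although the gate was IgD-, and at 30.9 to 73.7 CPM in annotated cells. Cr2, a marker of the same class, went the other way, at 43.2 to 76.7 CPM and 74.1 to 123 CPM. Cd3e was at 1075 to 1148 CPM in T-like and 1.95 to 4.81 CPM in annotated cells. These genes are among the markers that named the clusters, so their levels do not check the names. The T-like cells were present in all 4 libraries although the gate should remove them, and 143 barcodes occurred in more than 1 library.

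The K library stood apart. Clusters 7 and 11, with 1187 of 1246 and 739 of 753 cells from K, held 54.3% of its CB, 80.6% of its transitioning cells and 4.26% of its CC, against 3.28%, 1.91% and 0% in WT. The median gene of K over WT was shifted by -0.12 in CB, -0.12 in transitioning cells and -0.10 in CC on the log2 scale, while C and CK stayed within 0.04 of 0. The targeted genes check the labels only in part, since 3' reads can lie outside the deleted exons. Over all annotated cells the log2 ratio of Crebbp over WT was -0.67 (-0.88 to -0.47) for C, -0.83 (-1.02 to -0.63) for K and -0.85 (-1.03 to -0.67) for CK. Crebbp was thus also lower in the library labelled K, as it was in its T-like cells at -0.76 (-0.996 to -0.52). For Kmt2d the ratio was 0.20 (-0.14 to 0.56) for C, -0.91 (-1.29 to -0.52) for K and -0.30 (-0.63 to 0.04) for CK.

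**Figure D1:**
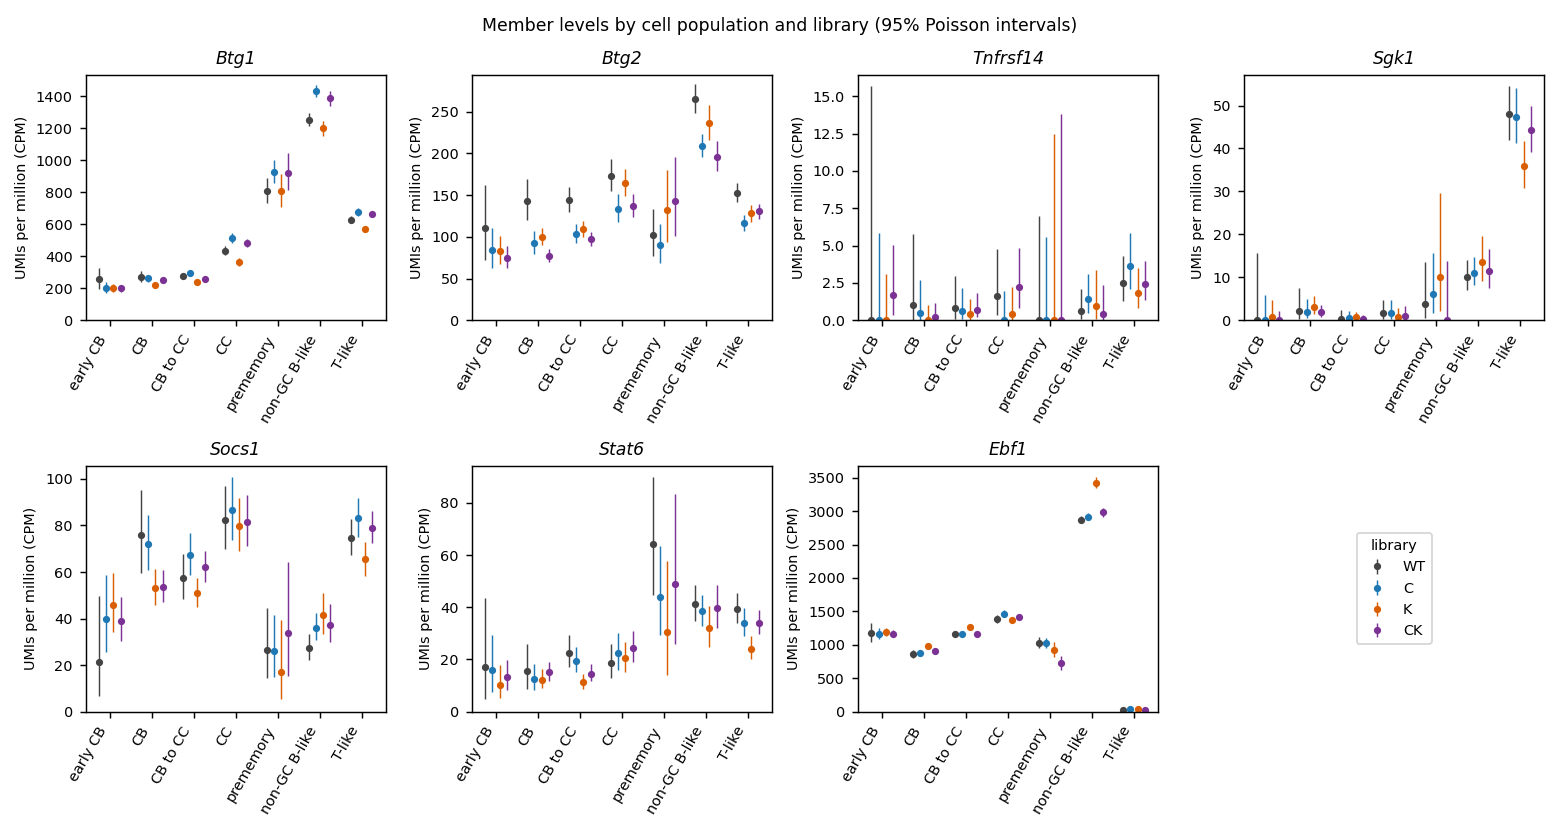
Level of each gene in CPM (linear axis from 0, scale differs between panels) in GC subtypes, non-GC B-like and T-like cells, with 1 point per library and 95% Poisson intervals. Btg1, Btg2 and Ebf1 were highest in non-GC B-like cells, Sgk1 was highest in T-like cells, and Tnfrsf14 stayed at or below 3.64 CPM.

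Btg1, the first of the antiproliferative pair, was lower in CB than in CC and highest in non-GC B-like cells. Its level in CB was 270.2 CPM in WT, 262 CPM in C, 219 CPM in K and 254 CPM in CK. In CC it was 435 CPM in WT, 513 CPM in C, 364 CPM in K and 481 CPM in CK, so the lowest CC library lay above the highest CB library. Prememory cells had 810.3 CPM in WT, 928 CPM in C, 808 CPM in K and 923 CPM in CK. Non-GC B-like cells were higher again, with 1255 CPM in WT, 1435 CPM in C, 1199 CPM in K and 1388 CPM in CK. The mean levels ran from recycling cells (129 CPM, from 67 UMIs in all) through early CB, CB, transitioning cells, CC and T-like cells (634 CPM) to prememory and non-GC B-like cells. Between neighbours in this order, the ranges over libraries overlapped only from early CB to CB and from CB to transitioning cells.

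Within libraries, Btg1 was higher in CC than in CB by 0.83 ± 0.14 (SD, n = 4 libraries) on the log2 scale, and in all 4. The subtypes were named from the expression of the same cells, so differences between cell populations are descriptions without a test. A gene is past the fold there when the mean difference is at least 1.5-fold, the direction is shared by all 4 libraries and each has at least 50 UMIs over both populations. Of 5479 genes read in CC over CB, 25.4% were past the fold, and the median gene was at -0.11. Of the 7 members 4 were read and 3 were past the fold, Btg1, Btg2 and Ebf1, all higher in CC. Without K, and likewise without CK, the count was 2.

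The deposited pseudotime runs from CB to prememory cells and was divided into 5 bins with equal numbers of WT cells. Btg1 went from 235 to 673 CPM in WT between the first and the last bin, from 237 to 780.4 CPM in C, from 207 to 548 CPM in K and from 219 to 608 CPM in CK. The last bin was thus higher by 1.53 ± 0.13 (SD, n = 4) on the log2 scale. In this comparison 30.1% of 5294 genes were past the fold, and 3 of the 5 members read were, Btg1, Btg2 and Stat6, all higher in the last bin.

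**Figure D2:**
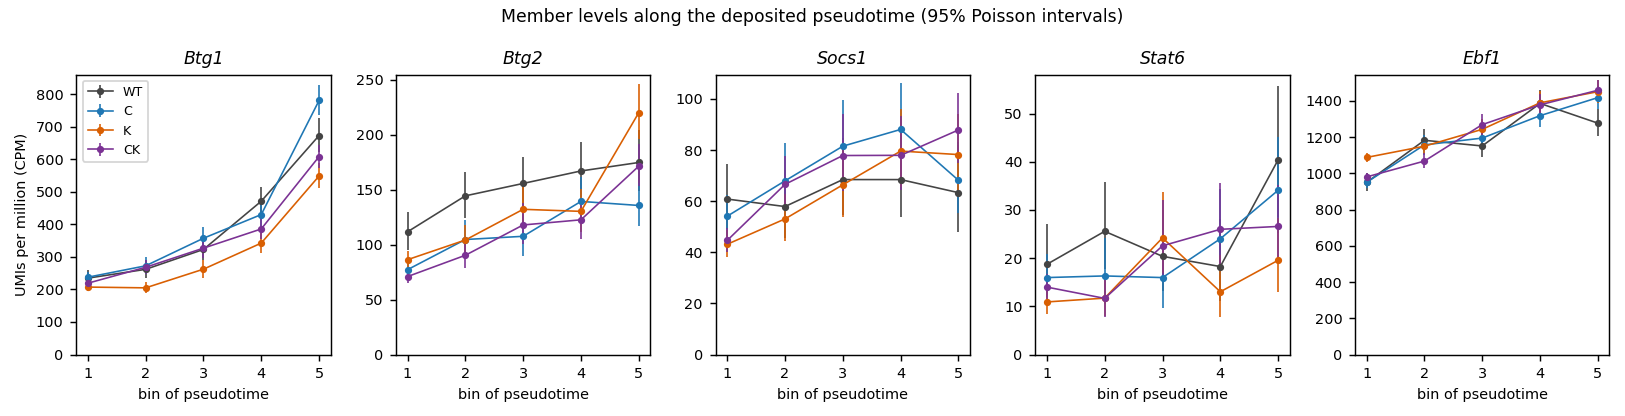
Level in CPM (linear axis from 0) of 5 genes in the 5 bins of the deposited pseudotime, with 1 line per library and 95% Poisson intervals. Btg1 was highest in the last bin in all 4 libraries, while Btg2 in WT went from 112 CPM in the first bin to 175 CPM in the last.

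Btg2, the other protein of the pair and a target of p53, was below WT in the CB and transitioning cells of all 3 mutant libraries. In CB its level was 143 CPM in WT, 92.4 CPM in C, 99.8 CPM in K and 77.5 CPM in CK. In transitioning cells it was 144 CPM in WT, 104 CPM in C, 109 CPM in K and 97.1 CPM in CK, with WT again highest. In CC the gap was smaller, with 173 CPM in WT, 133 CPM in C, 165 CPM in K and 137 CPM in CK. The log2 ratio over WT in CB was -0.63 (-0.96 to -0.31) for C, -0.52 (-0.81 to -0.23) for K and -0.89 (-1.17 to -0.59) for CK. In transitioning cells it was -0.48 (-0.70 to -0.26) for C, -0.41 (-0.60 to -0.21) for K and -0.57 (-0.77 to -0.38) for CK. Within CC it was -0.38 (-0.62 to -0.14) for C, -0.07 (-0.29 to 0.14) for K and -0.34 (-0.56 to -0.12) for CK. Relative to the median gene, K was at -0.40 in CB and 0.03 in CC. Prememory cells gave no common direction, with 38 to 59 UMIs per library and ratios of -0.19 (-0.75 to 0.37) for C, 0.37 (-0.27 to 0.99) for K and 0.48 (-0.16 to 1.11) for CK.

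Btg2 was below WT outside the GC as well, and the ratios of all mutant libraries share the 1 WT library. Non-GC B-like cells had 266 CPM in WT, 209 CPM in C, 236 CPM in K and 196 CPM in CK, with log2 ratios of -0.35 (-0.48 to -0.21) for C, -0.17 (-0.33 to -0.01) for K and -0.44 (-0.60 to -0.28) for CK. T-like cells had 153 CPM in WT, 116 CPM in C, 128 CPM in K and 130.4 CPM in CK. Relative to non-GC B-like cells of the same libraries, the ratio in CB was -0.29 for C, -0.35 for K and -0.45 for CK, and in CC it was -0.03 for C, 0.10 for K and 0.10 for CK. Relative to T-like cells, it was -0.24 for C, -0.27 for K and -0.66 for CK in CB. The annotation stops below 2500 genes per cell, and with cells at or above that limit added the ratio in CB was -0.37 for C, -0.22 for K and -0.48 for CK. In CB all of these values were below 0, and of them the one for CK relative to T-like cells reached 1.5-fold. In thinned transitioning cells the ratio was -0.62 for C, -0.73 for K and -0.66 for CK.

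**Figure D3:**
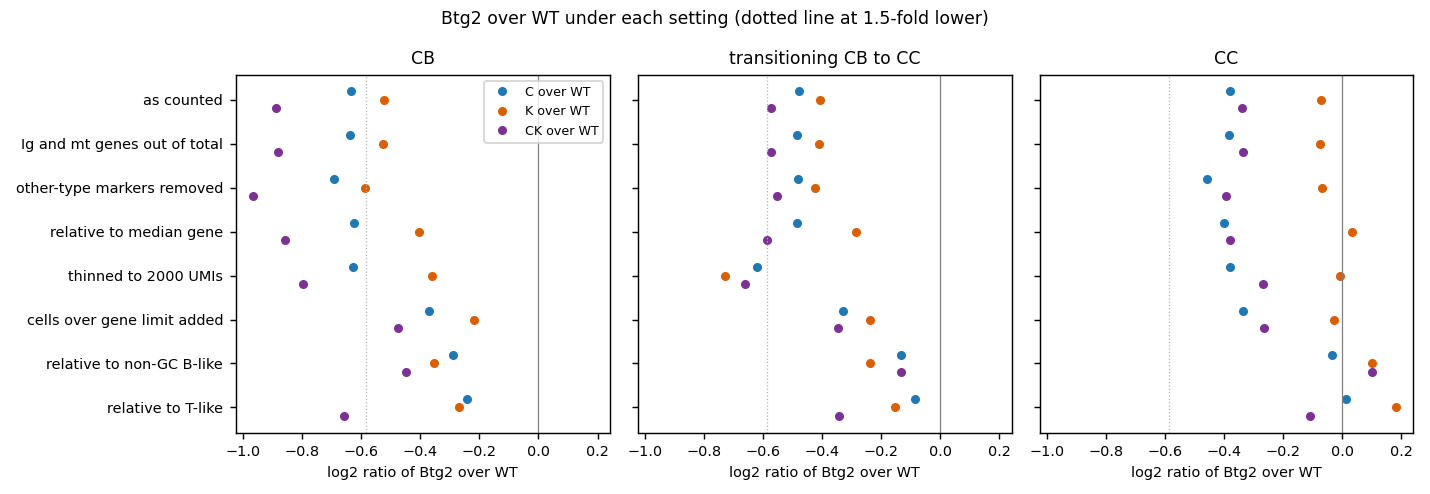
log2 ratio of Btg2 over WT in CB, transitioning cells and CC under each setting, with 1 point per mutant library and a dotted line at 1.5-fold lower. In CB the ratio in CK ran from -0.97 with cells that held other-type markers removed to -0.45 relative to non-GC B-like cells, and in CC the ratios relative to non-GC B-like cells lay between -0.03 and 0.10.

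With each cell thinned to 2000 UMIs, 21.3% of CB held a Btg2 UMI for WT, 15.4% for C, 18.0% for K and 13.2% for CK. Unthinned, the share was 49.7% for WT, 34.9% for C, 39.2% for K and 29.2% for CK, and thinning left out 9 to 30 CB per library. No population here is known to lack Btg2, so no background share can be set beside these. Immediate early genes, which respond to stimulation and handling and among which Btg2 is often counted, moved with it in part. In CB the listed ones summed to 787 CPM in WT, 793 CPM in C, 581 CPM in K and 615 CPM in CK, and in CC to 1462 CPM in WT, 1637 CPM in C, 1295 CPM in K and 1472 CPM in CK. In CB of CK, 1 of 9 read was past the fold higher and 3 lower, where 9.70% of all genes were higher and 8.31% lower. The median of these 9 was -0.55 against -0.03 over all genes. Their part in the Btg2 values was not tested.

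Within libraries, Btg2 was higher in CC than in CB by 0.59 ± 0.24 (SD, n = 4) on the log2 scale, at the edge of the fold. It was 0.54 without K and 0.51 without CK, which is under the fold. Of 8 immediate early genes read in CC over CB, 7 were past the fold and higher, against 25.4% of all genes past it either way. Along pseudotime the last bin was higher by 1.02 ± 0.34, from 0.65 for WT to 1.35 for K. The position of K and CK against WT changed along it. In the first bin the log2 ratio over WT was -0.53 for C, -0.37 for K and -0.65 for CK. In the last bin Btg2 had 175 CPM in WT, 136 CPM in C, 220.04 CPM in K and 171 CPM in CK. The ratio there was -0.37 (-0.68 to -0.05) for C, 0.33 (0.05 to 0.62) for K and -0.03 (-0.31 to 0.26) for CK, so K lay above WT and CK level with it. The ranges over libraries overlapped between all neighbours from early CB to CC, and non-GC B-like cells, at 227 ± 30.9 CPM (SD, n = 4), lay above the rest. Of the 16 genes of the BTG and CCR4-NOT list, 12 were read in CC over CB. Cnot6, a catalytic subunit of the deadenylase, was past the fold at -0.66, and 25.4% of all genes were past it. In CB over WT, 1 of 12 was lower in C, 1 of 13 higher and 3 lower in K, and 1 of 14 higher and 1 lower in CK. In CC over WT none was past the fold in C or CK and 4 of 13 were lower in K. Over all genes, 19.8% were lower in K both in CB and in CC. In CB, 4.3% were lower in C, 5.66% were higher in K, and 9.70% were higher and 8.31% lower in CK.

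Between genotypes, a ratio is past the fold when it is at least 1.5-fold and rests on at least 50 UMIs over both libraries. Of the 21 member ratios in CB, transitioning cells and CC, 14 were read in C and 1 was past the fold, Btg2 in CB, against 6.84% of all gene ratios. In K 15 were read and 1 was past it, Stat6 in transitioning cells, against 24.3%. In CK 15 were read and 2 were past it, Btg2 in CB and Stat6 in transitioning cells, against 12.3%. All were lower than in WT. These counts are near the background in C and CK and below it in K, so as a group the members did not stand out.

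**Figure D4:**
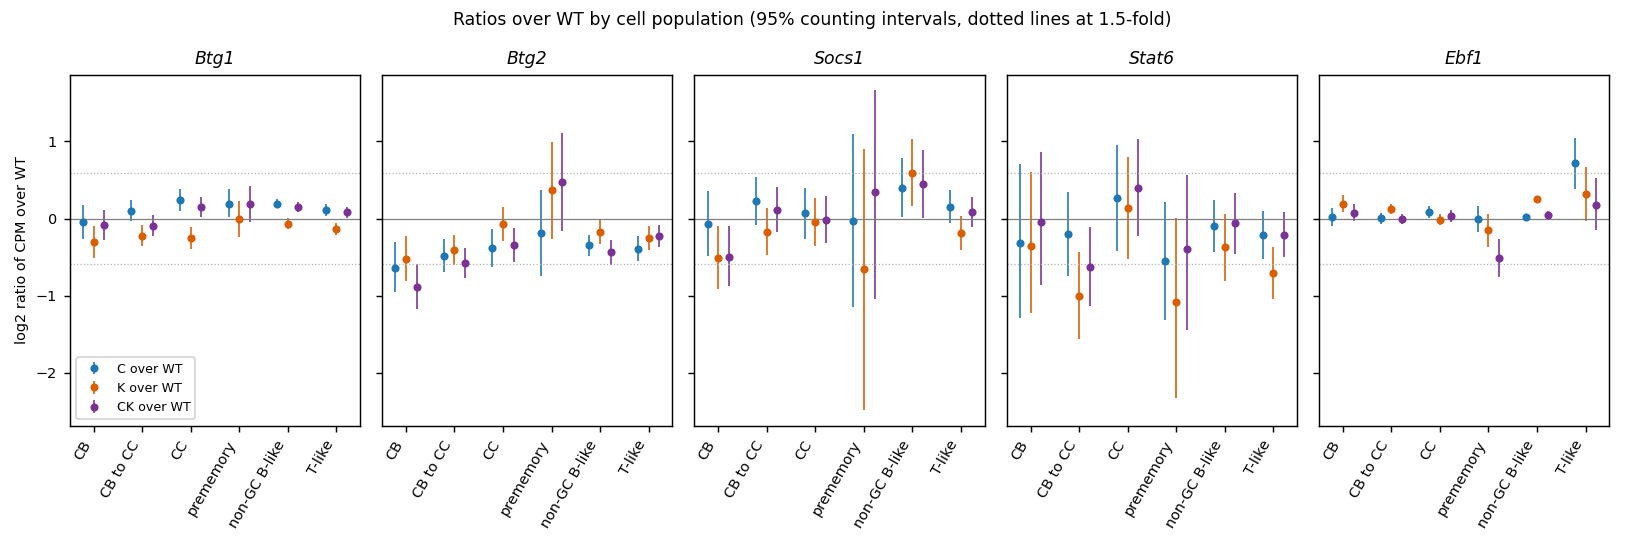
log2 ratio of CPM over WT for 5 genes by cell population, with 1 point per mutant library, 95% counting intervals and dotted lines at 1.5-fold either way. Btg2 lay below 0 in CB, transitioning cells, CC, non-GC B-like and T-like cells of all 3 mutant libraries, and Btg1 stayed within 1.5-fold in all of these.

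Btg1 differed less between genotypes than the fold. Its log2 ratio over WT in CB was -0.04 (-0.26 to 0.18) for C, -0.30 (-0.50 to -0.09) for K and -0.09 (-0.28 to 0.11) for CK. In CC it was 0.24 (0.10 to 0.38) for C, -0.25 (-0.39 to -0.12) for K and 0.15 (0.02 to 0.28) for CK. Relative to non-GC B-like cells, the ratios in CC were 0.05 for C, -0.19 for K and 0.00 for CK. The intervals in CB and CC leave out changes of 1.5-fold.

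Socs1, the inhibitor of JAK kinases, was higher in annotated GC B cells as a whole than in B cells outside the GC. In CB its level was 75.9 CPM in WT, 72.2 CPM in C, 53.1 CPM in K and 53.7 CPM in CK. Within CC it was 82.6 CPM in WT, 86.5 CPM in C, 79.9 CPM in K and 81.6 CPM in CK. The CC libraries lay close together, while in CB WT and C lay above K and CK. Non-GC B-like cells had 27.4 CPM in WT, 36.1 CPM in C, 41.4 CPM in K and 37.4 CPM in CK, and prememory cells 16.9 to 33.8 CPM. In the order of mean levels, neighbours overlapped except early CB and transitioning cells. The CC, at 79.9 to 86.5 CPM, lay above the ranges of transitioning cells (51.02 to 67.3 CPM) and CB.

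Within libraries, Socs1 was lower in non-GC B-like than in annotated GC B cells, with a log2 difference of -0.80 ± 0.33 (SD, n = 4) and the same direction in all 4. In that comparison 39.3% of 8366 genes were past the fold. Of the members 5 were read and all 5 were past it, Socs1 lower and Btg1 (2.02 ± 0.21), Btg2 (0.98 ± 0.09), Stat6 and Ebf1 higher. The last bin of pseudotime was above the first by 0.56 ± 0.43, not past the fold, with 0.06 for WT and 0.98 for CK. It was 0.72 without WT and 0.63 without C, past the fold in both cases.

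The log2 ratio of Socs1 over WT in CB was -0.07 (-0.49 to 0.35) for C, -0.51 (-0.91 to -0.10) for K and -0.50 (-0.88 to -0.10) for CK. With cells at or above 2500 genes added it was 0.26 for C, 0.11 for K and 0.18 for CK, so the direction in CB turned with the end of the annotation. In CC it was 0.07 (-0.26 to 0.40) for C, -0.05 (-0.36 to 0.27) for K and -0.02 (-0.32 to 0.29) for CK, which leaves out changes of 1.5-fold. In non-GC B-like cells it was 0.40 (0.02 to 0.79) for C, 0.60 (0.16 to 1.03) for K and 0.45 (0.01 to 0.89) for CK, from 93 (WT), 153 (C), 88 (K) and 88 (CK) UMIs. Every mutant library was above WT there.

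Stat6, the transcription factor of the interleukin 4 signal, gave few UMIs. In CB its level was 15.6 CPM in WT, 12.51 CPM in C, 12.2 CPM in K and 15.1 CPM in CK, from 15 to 71 UMIs. In transitioning cells it was 22.4 CPM in WT, 19.5 CPM in C, 11.2 CPM in K and 14.6 CPM in CK. Within CC it was 18.6 CPM in WT, 22.3 CPM in C, 20.4 CPM in K and 24.4 CPM in CK, so WT was highest in transitioning cells and lowest in CC. Non-GC B-like cells had 41.2 CPM in WT, 38.5 CPM in C, 32.0 CPM in K and 39.5 CPM in CK, and prememory cells 30.4 to 64.4 CPM from 9 to 34 UMIs. In the order of mean levels, all neighbours overlapped except CC and recycling cells.

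Within libraries, Stat6 was higher in non-GC B-like than in annotated GC B cells by 1.04 ± 0.21 (SD, n = 4) on the log2 scale, and in the last than in the first bin of pseudotime by 0.99 ± 0.13, each in all 4 libraries. In CC over CB the mean was 0.63 ± 0.26, but WT had under 50 UMIs and the gene was not read. Without WT it was 0.75 and past the fold, which made 4 members.

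The log2 ratio of Stat6 over WT in transitioning cells was -0.20 (-0.74 to 0.34) for C, -0.998 (-1.56 to -0.44) for K and -0.62 (-1.13 to -0.10) for CK, from 55 (WT), 66 (C), 57 (K) and 83 (CK) UMIs. For K it was -0.88 relative to the median gene and -0.30 relative to T-like cells, where K was also lower, at -0.70 (-1.05 to -0.36). For CK it was -1.13 with cells thinned and -0.46 with cells at or above 2500 genes added. In CC the ratio was 0.26 (-0.42 to 0.96) for C, 0.13 (-0.52 to 0.80) for K and 0.39 (-0.23 to 1.03) for CK. A difference in CC was not detectable at this depth.

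Part of the STAT pathway was higher in CC than in CB. Of the 25 listed STATs, JAKs, cytokine receptors and their inhibitors, 14 were read in CC over CB, 6 were past the fold and higher and none was lower. Their median was 0.44 against -0.11 over all genes, of which 25.4% were past the fold either way. Among the listed genes past the fold were Il2rg at 1.54, the shared chain of several interleukin receptors, and Il21r at 1.41. Il4ra was at 1.27, the phosphatase gene Ptpn6 at 0.96 and Ifnar1 at 0.90. In non-GC B-like over annotated cells 8 of 20 were higher and none lower, led by Ifnar1 at 2.38 and Il10ra at 2.08. Over all genes 39.3% were past the fold either way there.

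Between genotypes the pathway list had genes past the fold in all 3 mutant libraries. In CB 7 of 16 genes read were lower and none higher in K, where 19.8% of all genes were lower, with a median of -0.46 against -0.12 over all genes. In CB of C 1 of 14 was higher and 2 lower, where 5.4% of all genes were higher and 4.3% lower. In CB of CK 2 of 17 were lower, against 8.31% of all genes. In transitioning cells none of 18 was past the fold in C, 7 of 19 were lower in K and 4 of 19 in CK, and none was higher. Of all genes in transitioning cells of K, 20.99% were lower. The median in transitioning cells of CK was -0.27 against 0.01 over all genes, of which 5.52% were lower. In CC of CK 1 of 17 was past the fold, where 3.15% of all genes were lower. It was Il10ra, with 12.2 CPM against 19.1 CPM and a log2 ratio of -0.65 (-1.38 to 0.08). Il4ra, the receptor chain upstream of STAT6, had ratios in transitioning cells of -0.55 (-0.87 to -0.22) for C, -0.57 (-0.86 to -0.28) for K and -0.53 (-0.82 to -0.25) for CK. In CC they were 0.23 (-0.12 to 0.59) for C, -0.18 (-0.53 to 0.18) for K and 0.03 (-0.30 to 0.37) for CK.

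Of the 12 genes of the IL-4 response list, 8 were read in CC of CK, with 2 higher and 1 lower past the fold. Over all genes there, 4.41% were higher and 3.15% lower. Fcer2a, which encodes CD23, was at -1.19 (-1.40 to -0.97), and at -0.07 relative to non-GC B-like cells. Batf, a transcription factor of the AP-1 family, was at 0.92 (0.37 to 1.51), and at 0.14 with cells at or above 2500 genes added. Bcl2l1, a survival gene, was at 0.79 (-0.07 to 1.72). In CC over CB 4 of the listed genes were read, where 25.4% of all genes were past the fold either way. Fcer2a at 2.99 and Il4ra were higher and the kinase gene Pim1 was at -0.82.

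Tnfrsf14, the HVEM receptor gene, was near the detection limit in all populations. Annotated GC B cells had 6 (WT), 3 (C), 3 (K) and 14 (CK) UMIs, or 0.236 to 0.989 CPM. Prememory cells had none, where the upper limits of the intervals were 5.61 to 13.8 CPM. T-like cells had 12 (WT), 17 (C), 9 (K) and 15 (CK) UMIs, or 1.86 to 3.64 CPM, and non-GC B-like cells 1 to 6 UMIs. All neighbours in the order of levels overlapped, and no ratio between genotypes could be read.

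Other genes of the HVEM list were in part measured better. Of the 10 genes of the HVEM list, 6 were read in CC over CB. Over all genes 25.4% were past the fold either way, and 3 of the 6 were, all higher. They were Lta at 1.71 and Ltb at 1.05, ligands of the TNF family, and Btla at 0.73, the receptor that HVEM engages. In CC of CK, Lta had 74.6 CPM against 128 CPM in WT, and its log2 ratio was -0.78 (-1.06 to -0.50). The other 5 genes read were within the fold, and over all genes 3.15% were lower. In CB of CK 1 of 6 was higher and 3 lower, where 9.70% of all genes were higher and 8.31% lower. In K 2 of 5 were lower in CB and 2 of 6 in CC, where 19.8% of all genes were lower in each. In C none was past the fold in either.

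Sgk1, the kinase gene, was near the detection limit in GC B cells and well measured in T-like cells. Annotated cells had 8 (WT), 13 (C), 21 (K) and 14 (CK) UMIs, or 0.908 to 1.66 CPM. Non-GC B-like cells had 10.01 CPM in WT, 11.1 CPM in C, 13.6 CPM in K and 11.5 CPM in CK. T-like cells had 47.9 CPM in WT, 47.3 CPM in C, 35.9 CPM in K and 44.3 CPM in CK, with no overlap between these 3 populations. In thinned cells 7.10 to 8.68% of T-like cells held an Sgk1 UMI, against 0.221 to 0.423% of annotated cells, and unthinned 8.40 to 13.8% against 0.329 to 0.697%. Within libraries T-like cells were above non-GC B-like cells by 1.92 ± 0.37 (SD, n = 4) on the log2 scale. In that comparison 34.4% of 7650 genes were past the fold, and of the 6 members read 5 were. Sgk1 and Socs1 (1.10 ± 0.33) were higher in T-like cells, and Btg1 (-1.06 ± 0.04), Btg2 (-0.78 ± 0.13) and Ebf1 lower.

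In T-like cells the log2 ratio of Sgk1 over WT was -0.02 (-0.29 to 0.25) for C, -0.42 (-0.71 to -0.13) for K and -0.11 (-0.37 to 0.14) for CK. K was at -0.24 relative to the median gene. Of the 12 genes of the SGK1 list, 8 were read in CC over CB and 2 were lower past the fold. They were Akt1 at -1.07 and Pdpk1 at -0.80, kinases of the PI3K pathway. Over all genes 25.4% were past the fold either way. In non-GC B-like over annotated cells 3 of 10 were higher and 1 lower, against 39.3% of all genes past the fold either way. Tsc22d3, a FOXO and glucocorticoid target, was among the higher ones at 2.98. In CC over WT, none of 8 was past the fold in C, 4 of 8 were lower in K, where 19.8% of all genes were, and none of 9 in CK. Foxo1, whose protein is a substrate of the pathway, had ratios for CK of -0.17 (-0.50 to 0.17) within CB and -0.15 (-0.43 to 0.13) within CC.

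Ebf1, the B cell identity factor, was high in all B cells and close between genotypes. In CB its level was 858 CPM in WT, 870.2 CPM in C, 981 CPM in K and 904 CPM in CK. In CC it was 1384 CPM in WT, 1465 CPM in C, 1371 CPM in K and 1417 CPM in CK, above CB in every library. Non-GC B-like cells had 2875 CPM in WT, 2917 CPM in C, 3426 CPM in K and 2982 CPM in CK. T-like cells, which should lack Ebf1, had 25.9 CPM in WT, 42.6 CPM in C, 32.4 CPM in K and 29.4 CPM in CK, a level that can be read as background. In thinned cells 3.37 to 4.59% of T-like cells held an Ebf1 UMI against 76.5 to 81.2% of CB, and unthinned 4.65 to 5.94% against 92.6 to 96.9%. Median depths were 1950 to 3244 UMIs in T-like cells and 4604 to 5526 UMIs in CB.

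Within libraries, Ebf1 was higher in CC than in CB by 0.64 ± 0.11 (SD, n = 4) on the log2 scale and in non-GC B-like than in annotated GC B cells by 1.40 ± 0.10. The log2 ratio over WT in CB was 0.02 (-0.10 to 0.14) for C, 0.19 (0.08 to 0.30) for K and 0.07 (-0.03 to 0.18) for CK, and K was at 0.31 relative to the median gene. Within CC it was 0.08 (0.00 to 0.16) for C, -0.01 (-0.09 to 0.06) for K and 0.03 (-0.04 to 0.11) for CK. These intervals leave out changes of 1.5-fold. Prememory cells were lower in CK, with 1032 CPM in WT, 1027 CPM in C, 929 CPM in K and 724 CPM in CK, and a log2 ratio in CK of -0.51 (-0.75 to -0.27) from 193 UMIs in CK and 545 in WT.

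Of the partners and targets of EBF1 all 15 listed genes were read, and none was past the fold in CB or CC of C or CK. In K none was past it in CB and 1 was lower in CC, where 19.8% of all genes were lower in each. Pax5, the partner of Ebf1 in B cell identity, had ratios for CK of 0.18 (-0.10 to 0.47) within CB and 0.07 (-0.14 to 0.28) within CC. In transitioning cells 1 listed gene was lower past the fold in C and 2 in K. Of all genes there, 2.87% were lower in C and 20.99% in K. Pax5 in transitioning cells was at -0.59 (-0.76 to -0.41) for C, -0.60 (-0.76 to -0.45) for K and -0.40 (-0.55 to -0.25) for CK. Ebf1 itself was at 0.001 (-0.07 to 0.07) for C, 0.13 (0.06 to 0.19) for K and -0.002 (-0.07 to 0.06) for CK in the same cells. Cd79a, a target of EBF1 that encodes a chain of the B cell receptor, had ratios for CK of -0.18 (-0.25 to -0.12) within CB and -0.08 (-0.13 to -0.03) within CC. In CC over CB 3 of 15 were higher and 2 lower, against 25.4% of all genes past the fold either way. The receptor gene Cd22 was at 1.09 and the transcription factor genes Pou2af1 at -0.98 and Tcf3 at -0.91. In T-like over non-GC B-like cells 14 of 15 were lower, where 34.4% of all genes were past the fold either way.

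The list of 30 other genes mutated in GC lymphoma served as a wider reference. In CB and in CC, 26 were read, and none was past the fold in C or CK, while in K 3 were lower in each, a smaller share than the 19.8% of all genes. Their medians in CK were 0.02 in CB and -0.07 in CC, against -0.03 and 0.04 over all genes. In CC over CB 9 of 26 were higher and 2 lower, against 25.4% of all genes past the fold either way. Higher ones included the light zone marker Cd83 at 2.69, the proton channel gene Hvcn1 at 1.48 and the NF-κB inhibitor gene Nfkbia at 1.45.

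Among unannotated cells, Sgk1 and Socs1 differed between clusters, which are named here by leading genes and number. Sgk1 was at 50.7 to 84.8 CPM over libraries in the T-like cluster with Ccl5 and Nkg7 among its leading genes (9) and at 44.8 to 63.5 CPM in that led by Dapl1 and Cd8b1 (1). It was at 8.71 to 18.8 CPM in the T-like cluster with Maf and Pdcd1 among its leading genes (6) and at 4.94 to 7.10 CPM in that with Foxp3 (14). The first pair of ranges lay wholly above the second. Socs1 was at 131 to 220.2 CPM in the T-like cluster led by the interferon-induced genes Ifit1 and Ifit3 (22) and at 95.99 to 184 CPM in the non-GC B-like cluster led by Ifit3 (23). In cluster 14 it was at 89.5 to 188 CPM, overlapping both, and in clusters 1, 6 and 9 within 51.0 to 82.2 CPM. In the main non-GC B-like cluster, led by Ly6d (0), it was at 26.8 to 35.4 CPM, below every library of cluster 23. Since the clusters were made from the same cells, these are descriptions.

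**Figure D5:**
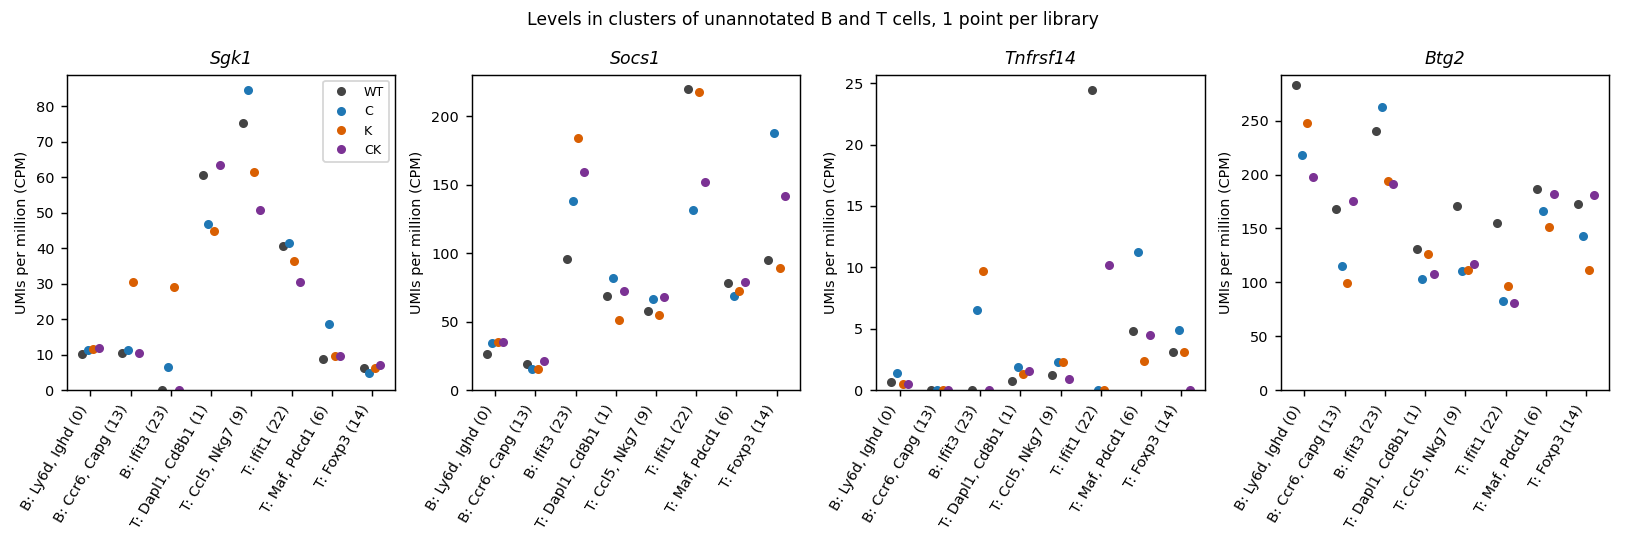
Level in CPM (linear axis from 0) of 4 genes in clusters of unannotated B-like and T-like cells, 1 point per library, named by leading genes with the cluster number in parentheses. Sgk1 ran from 44.8 to 84.8 CPM in clusters 1 and 9 and from 4.94 to 18.8 CPM in clusters 6 and 14. Socs1 ran from 95.99 to 220.2 CPM in clusters 22 and 23 and from 89.5 to 188 CPM in cluster 14.

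In the non-GC B-like cluster led by Ccr6 (13), Ebf1 was at 1052 to 1570.4 CPM and Btg1 at 747 to 945 CPM, against 3106 to 3693 CPM and 1245 to 1497 CPM in cluster 0. In the cluster led by Plac8, Cr2 and Cd1d1 (8), which the markers left unnamed, Socs1 was at 6.45 to 11.6 CPM and Ebf1 at 2003 to 2344 CPM. Tnfrsf14 was at 2.41 to 11.3 CPM in cluster 6, and in cluster 22 it was at 24.5 CPM in WT, 10.2 CPM in CK and 0 in C and K. Cluster 22 held only 38 (WT), 51 (C), 52 (K) and 85 (CK) cells. With the gene near the detection limit, its values there cannot be compared between libraries. Between genotypes, 4.06% of genes were past the fold for C, 21.7% for K and 5.26% for CK in non-GC B-like cells, and 4.59%, 23.1% and 4.11% in T-like cells. Of the members, Socs1 of K in non-GC B-like cells was past it, and in T-like cells Stat6 of K and Ebf1 of C, the latter at 0.72 (0.39 to 1.05) and at background level.

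Likeness between genes was measured as Pearson's r on log2(CPM + 10) over 21 points, each a subtype of a library with at least 30 cells, among 2830 genes with a mean of at least 50 CPM. The points share libraries, depth and annotation, so r is a description. The patterns most like that of Btg1 were those of B2m (0.967), Cd38 (0.964) and Ighd (0.960). For Btg2 they were Tespa1 (0.891), Siglecg (0.890) and Gm26740 (0.861), and for Socs1 Actg1 (0.897), Clta (0.856) and Uqcrh (0.854). For Stat6 they were Mtdh (0.947), AW112010 (0.922) and Eif1a (0.917), and for Ebf1 Pmf1 (0.881), Limd2 (0.851) and Yipf1 (0.845). Tnfrsf14 and Sgk1, with means of 0.486 and 1.77 CPM over these points, were too sparse for this.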

How the data were processed

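Spleen B220+IgD- cells of 4 mice, 1 per genotype, were measured by droplet-based 3' single-cell RNA sequencing. The authors made the deposited UMI counts per gene and barcode, which are raw, with Cell Ranger (3.0 in the submitters' processing notes, 3.0.2 in the file headers) on the mm10 build. They named subtypes in Seurat 4.0 by label transfer and ordered GC B cells with slingshot. Per its values, the deposited pseudotime ranks the cells of WT and 1 mutant library jointly. A mutant cell was placed among the WT cells by its joint rank less its order among cells of that mutant.

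The members and gene lists were chosen with earlier results of these data known. Counts were summed per library and population and scaled to the total. Intervals were exact Poisson for CPM and exact conditional binomial for ratios. Barcodes with less than 8% mitochondrial UMIs were clustered with leidenalg 0.10.2 on 30 principal components of 2000 variable genes, leaving out immunoglobulin genes, mitochondrial genes and the members. A cluster was named where at least 3 and at least 50% of the markers of exactly 1 class reached 1/4 of their highest cluster level and no other class had more markers among its 10 leading genes. The T-like and non-GC B-like cells have no upper limit on genes per cell, unlike the annotated cells. Doublets were kept and no caller was run. The code that computes the ratios was checked on simulated data.

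Named genes were the 7 members, at most 4 genes per list with the largest ratio of CK over WT in CC past 1.5-fold, Pax5, Cd79a, Il4ra, Foxo1, Crebbp and Kmt2d, and the 3 genes most like each member. Other list genes named as past the fold between populations, markers and leading genes of clusters were chosen after their values were seen. Alternatives covered the UMI minimum, the scaling, thinning, the gene limit (added cells took the most frequent label of their 25 nearest cells), removal of cells with 2 or more UMIs of another type's markers, division by the ratio in other cells, choice of cells by markers, the pseudotime bins and each library left out. Tools were Python 3.11.15, numpy 2.4.6, scipy 1.17.1, pandas 2.3.3, scikit-learn 1.9.0 and matplotlib 3.10.9. Results for some listed genes are not reported here.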

Additional observations from a re-analysis of the deposited data

Results flagged for a closer look

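In CK over WT, Socs1 was at 0.45 (0.01 to 0.89) in non-GC B-like cells and at -0.50 (-0.88 to -0.10) in CB on the log2 scale, opposite directions with a gap of 0.948. Each side rests on 1 library per genotype and the difference was not tested. With cells at or above 2500 genes added, the value in CB was 0.18. Ebf1 in CK over WT was at 0.05 (0.01 to 0.10) in non-GC B-like cells and at -0.51 (-0.75 to -0.27) in prememory cells, a gap of 0.563, and this difference was not tested either.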

How the results depend on the processing

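No paired analysis was possible because each genotype has 1 library. Of the 21 member ratios over WT in CB, transitioning cells and CC, 1 was past 1.5-fold in C, 1 in K and 2 in CK. For C the count was 2 with no UMI minimum, 2 with cells thinned to 2000 UMIs, 0 with cells at or above 2500 genes added, 0 relative to non-GC B-like cells and 3 relative to T-like cells. These 3 were Ebf1 in CB (-0.70), transitioning cells (-0.72) and CC (-0.64), where T-like Ebf1 is at background level, and Btg2 in CB was -0.24. For K it was 6 with no UMI minimum, 2 with cells that held other-type markers removed and 4 relative to non-GC B-like cells, which were Socs1 in CB (-1.11), transitioning cells (-0.77) and CC (-0.64) and Stat6 in transitioning cells (-0.63). For CK it was 0 with cells at or above 2500 genes added and 1 relative to non-GC B-like cells, which was Socs1 in CB (-0.95), while Btg2 in CB was -0.45 and Stat6 in transitioning cells -0.56. Under the other alternatives run, these counts stayed within 1.5 times. With each library left out in turn, the number of members past the fold ran from 2 to 4 for CC over CB, from 5 to 5 for non-GC B-like over annotated and for T-like over non-GC B-like cells, and from 3 to 4 along pseudotime. Over single genes, 78 values moved by more than their error and 549 did not. The causes were not tested. Depth limits Tnfrsf14, Sgk1 and Stat6 in GC cells, and genotype, mouse and library cannot be told apart.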

Other observations

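Within the cluster of annotated cells led by Cdc20 and Ccnb2 (5), which all libraries filled, Btg2 was at 152 CPM in WT, 87.1 CPM in C, 125 CPM in K and 95.8 CPM in CK. In the cluster led by Mcm4 (2) it was at 149.8 CPM in WT, 104 CPM in C, 149 CPM in K and 95.2 CPM in CK, with 84 cells in K. In the light zone cluster led by Cd83 and Slamf1 (3) it was at 159.5 CPM in WT, 129.96 CPM in C, 162 CPM in K and 146 CPM in CK. In the clusters that K filled nearly alone, Btg2 in K was at 105 CPM (7) and 69.1 CPM (11), and Ebf1 at 1238 and 1168 CPM.

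In the cluster led by Il4i1 and Nfkbid (12), with Batf and Myc among its leading genes, Stat6 was at 35.2 CPM in WT, 18.7 CPM in C, 36.8 CPM in K and 26.2 CPM in CK. Socs1 there was at 60.3 CPM in WT, 78.9 CPM in C, 64.7 CPM in K and 50.1 CPM in CK. With unannotated cells counted, this cluster held 105 (WT), 127 (C), 189 (K) and 242 (CK) cells. The Stat6 values rest on few UMIs, and differences between libraries were not tested.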
